A study of Mus musculus with 6 samples.

Results

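The proteasome genes were described in RNA of mouse bone marrow multipotent progenitors, wild type or carrying a latexin (Lxn) deletion. Members were the features of the array platform whose single gene symbol begins with Psma, Psmb, Psmc, Psmd or Psme and a number. The rule found 51 features of 45 genes, out of 23410 features with at least 1 gene symbol and 19938 genes, and the feature with the highest mean over the 6 arrays stands for each gene. Of the 45 genes, Psmc3ip and Psme3ip1 are named after a partner subunit and are not part of the particle. Psmd5, Psmd9 and Psmd10, kept here with the non-ATPase genes by their symbols, encode assembly chaperones that leave the finished particle. The other members encode subunits or activators of the proteasome.

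The series holds 6 Affymetrix whole-transcript arrays of sorted cells from mice labelled as C57BL/6 females of 8 to 12 weeks. In the wild-type group (WT, n = 3) latexin, which encodes a carboxypeptidase inhibitor, is intact, and in the group labelled Lxn-/- (n = 3) its exons 2 to 4 are deleted and the protein is lacking. No treatment is given for either group. Each array holds 1 pool of about 100000 cells from 10 to 20 mice, gated as lineage-negative, Sca1 and c-Kit positive, CD34 positive cells that were also positive for the receptor written as Flt2. The series text names the sorted cells as multipotent progenitors and, in another sentence, the pooled cells as LT-HSCs. The deletion is not described in the labels as limited to any cell type, so all cells of the mouse may carry it. The values are log2 expression values, a difference is always Lxn-/- minus WT, and its standard error (SE) is that of the limma fit. The number of arrays limits the precision of all values.

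The proteasome is the particle that degrades proteins tagged with ubiquitin. Its hollow core is built from rings of alpha subunits, which control entry, and rings of beta subunits, of which some carry the proteolytic sites. A regulatory cap of ATPase subunits unfolds the substrate, and the non-ATPase subunits of the cap recognise and remove ubiquitin. In cells exposed to interferon, and in many blood cells without it, the catalytic beta subunits are exchanged for immunoproteasome subunits that favour peptides for MHC class I. Blood progenitors depend on protein quality control and are known to be sensitive to errors in protein synthesis and removal.

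Several sample checks bear on all values below. Lxn itself did not separate the groups, at 8.56 to 8.70 in WT and 8.03 to 8.61 in the arrays labelled Lxn-/-, so it does not check the genotype. Where its probes lie in the gene is unknown here. Arrays 1 and 3 labelled Lxn-/- differed from their labels in sex-linked genes. Xist was 6.86 and 5.85 there against 13.13 to 13.23 in the other 4 arrays, and all 3 measured Y-linked check genes were higher there than in the other 4. Low Xist with Y-linked signal is the pattern of male cells, although the labels give female mice. No WT array showed it, so sex is partly confounded with the group labels. The gate markers Kit, Flt3 and Cd34 lay between 11.48 and 13.48 on all arrays, with Kit lowest on array 1 labelled Lxn-/-. The 7 measured markers of lineage cells had a median level of 7.42 to 7.69 in WT and 7.40 to 7.91 in Lxn-/-. The brightest of them, Itgam and Ly6g, ranged from 9.17 to 10.19 and from 8.37 to 9.44 over all arrays. The 9 macrophage and stromal markers had a median level of 7.93 to 8.17 in WT and 7.46 to 7.72 in Lxn-/-. Of the 9, 6 were lower in mean and 3 higher, where 42.2% of all features were higher. Cd68 and Pecam1, the brightest of the 9, were among the higher ones (0.32 and 0.27). The part of these differences in the proteasome values was not tested. In such sorted bulk samples, fewer cells of a type and less RNA per cell cannot be told apart.

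Nearly all proteasome genes had a higher mean in the arrays labelled Lxn-/-, by a small amount, and none passed the test. The mean was higher for 43 of 45 members, with a median log2 difference of 0.19 and a range from -0.26 to 0.40. The fold of the mean, Lxn-/- over WT, had its maximum at 1.32 (Psmd6). No member had a limma adjusted p under 0.05 over all tested features (smallest 0.340). Of all 23410 features, 0% had an adjusted p under 0.05. At an unadjusted p under 0.05, 8 members were higher and 0 lower, against 5.06% of all features higher and 9.23% lower (8.37% and 3.02% of the brighter features, meaning those with a mean level above the median feature). They were Psma2, Psmb2, Psmc2, Psmc6, Psmd3, Psmd6, Psmd12 and Psmd13, that is 17.8% of the members.

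All 3 arrays labelled Lxn-/- lay above all 3 WT arrays for 13 of the 45 members (28.9%) and below them for 0. That was the case for 8.54% of all tested features, or 15.8% of the brighter ones. The opposite order was found for 13.0% of all and 3.60% of the brighter features. Level matters here because 43 of the 45 members were among the brighter features. The brighter features were not matched further to the levels of the members, so they are only a rough comparison. Over all features 42.2% had a higher mean in Lxn-/- and the median difference was -0.04. Among the brighter features 69.3% had a higher mean and the median was 0.07. With each array centred on its median, 44 members and 53.7% of all features had a higher mean. After renewed quantile normalization, 40 members had a higher mean and 4 lay wholly above WT, against 5.81% of all features wholly above WT. The shares of the brighter features were not computed after centring or renewed normalization.

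The size of the difference depended on the array. The arrays also differed over all tested features, where the first principal component, the main axis of variation, held 48.1% of the variance. Arrays 1 and 3 labelled Lxn-/- lay at 29.53 and 27.81 on it. Array 2 lay at -8.06, on the side of the WT arrays at -20.93 to -13.58. Relative to the WT mean of each gene, the median member was at 0.33 in array 1 labelled Lxn-/-, at 0.11 in array 2 and at 0.14 in array 3. The WT arrays 1, 2 and 3 were at -0.01, -0.08 and 0.09, so array 2 labelled Lxn-/- was little higher than WT array 3. Array 1 labelled Lxn-/- had the highest value of all 6 arrays for 35 members, and WT array 2 the lowest for 26. Array weights, which are lower for arrays that vary more within their group, were lowest for these arrays. They were 0.36 for array 1 labelled Lxn-/- and 0.64 for WT array 2, against 1.34 to 1.58 for the others.

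**Figure D1:**
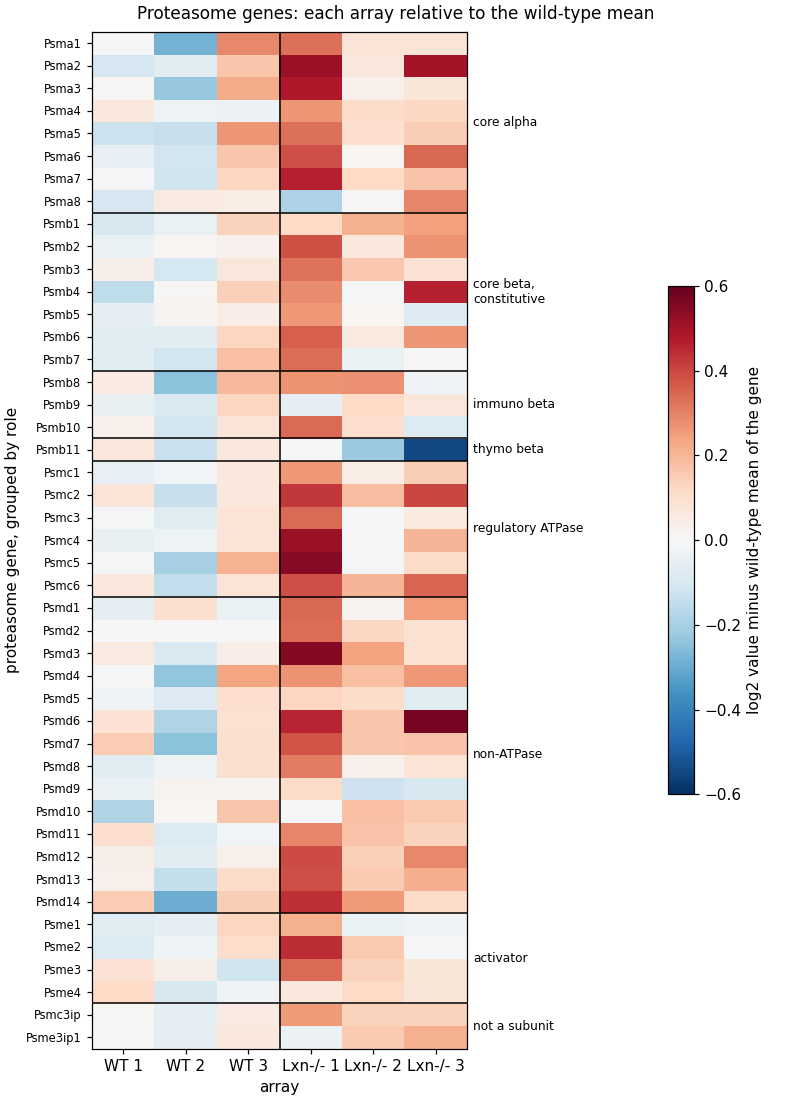
Heat map of the log2 value of each of the 45 genes (rows, grouped by role) on each of the 6 arrays (columns), minus the WT mean of that gene; red is higher and blue lower, and values beyond the colour scale do not occur. The column of array 1 labelled Lxn-/- holds the highest value for 35 genes, WT array 2 holds the lowest for 26, and Psmb11 is the darkest blue row, at -0.54 on array 3.

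Against every WT array, array 1 labelled Lxn-/- was higher for 38 members (84.4%), where 25.4% of all features and 36.6% of the brighter ones were. Array 2 was higher for 23 members (51.1%), against 27.4% of all and 46.7% of the brighter features. Array 3 was higher for 25 (55.6%), against 28.2% and 47.6%. For arrays 2 and 3 the members' share was therefore near that of the brighter features. Without array 1 the median difference of the members was 0.13, with 40 members higher. Without arrays 1 and 3 together, which leaves array 2 as the lone array labelled Lxn-/-, it was 0.11 with 38 higher, and without array 2 it was 0.21 with 44 higher. The members wholly above WT numbered 30 without WT array 3 and 22 without array 2 labelled Lxn-/-, where in either case 13.4% of all features lay wholly above WT. The share of the brighter features, which is nearer to the members in level, was not computed with arrays left out. With array 2 as the lone array 23 members lay above every WT array, against 27.4% of all features. No member was called in any of these comparisons, although 145 features were without array 2.

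Promoter sequence was read for members because proteasome genes are known to be induced together by the transcription factor Nrf1 (gene Nfe2l1), which binds antioxidant response elements. RefSeq promoter windows of build GRCm38.p6, from 250 bases before to 50 after the start of the gene, matched 38 of the 45 members. The element's core, searched as TGACNNNGC on both strands, was found in 6 of the 38 (15.8%) and in 14.0% of the 27025 genes with a window. The stretches below show those 6 matches in capitals within up to 15 flanking bases (shortened in Psmb6, Psmd12 and Psme4), in the direction of the gene, to show which members carry the core.
Psmb5, chr14:54618019-54618057, minus strand: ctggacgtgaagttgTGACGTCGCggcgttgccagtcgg
Psmb6, chr11:70525333-70525356, plus strand: gcggactaaagagagTGACGGAGC
Psmc6, chr14:45329582-45329620, plus strand: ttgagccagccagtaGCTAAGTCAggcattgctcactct
Psmd9, chr5:123228144-123228182, plus strand: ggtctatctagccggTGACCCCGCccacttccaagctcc
Psmd12, chr11:107479278-107479304, plus strand: tctGCTGTGTCAcatttgcccccctca
Psme4, chr11:30771753-30771776, plus strand: cccggcgctgcggctGCAGCGTCA
In Psmb5, Psmb6 and Psmd9 the match is on the strand of the gene, and in Psmc6, Psmd12 and Psme4 on the other one. The match lies at positions -47 to -39 from the start site in Psmb5, and in Psmc6 it lies at -227 to -219. The members with a match had a median log2 difference of 0.16 and those without one a median of 0.19.

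The core of the interferon-stimulated response element, searched on both strands as GAAA, then 2 bases of any kind, then GAAA, was found in 4 of the 38 members (10.5%) and in 3.99% of all genes. They were Psmb3, Psmd4, Psmd9 and Psme1, and their median log2 difference was 0.12 against 0.19 in the other members. Psme1 is shown because it belongs to the interferon-inducible activator. Its match lies on the strand opposite to the gene at positions 10 to 19 after the start site.
Psme1, chr14:55578493-55578522, plus strand: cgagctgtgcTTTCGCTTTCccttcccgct
CCAAT boxes (CCAAT, both strands) were in 42.1% of the members with a window and 41.1% of all genes, and a loose NF-kB motif (GGG, then 5 bases of any kind, then CC, both strands) in 57.9% and 53.5%. A match describes letters in this window and is not evidence of binding.

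The alpha subunits, which form the outer rings of the core, all had higher means in Lxn-/-. The median log2 difference of the 8 members was 0.19 (0.04 to 0.36), against -0.04 over all features and 0.07 over the brighter ones, and 1 of the 8 lay wholly above WT, where 15.8% of the brighter features did. Without WT array 3 this median was 0.31, and without arrays 1 and 3 labelled Lxn-/- together it was 0.07. Psma2 had the largest difference. It was 9.65, 9.69 and 9.92 in WT arrays 1, 2 and 3 and 10.27, 9.82 and 10.26 in arrays 1, 2 and 3 labelled Lxn-/-. Arrays 1 and 3 lay above WT and array 2 within it, and the difference of 0.36 (SE 0.14) did not pass (adjusted p 0.340). Psma7 was 10.05, 9.93 and 10.18 in WT and 10.52, 10.17 and 10.22 in Lxn-/-, a difference of 0.25 (SE 0.12, adjusted p 0.359) with array 2 just inside the WT range. Psma6 was 11.04, 10.97 and 11.25 in WT and 11.47, 11.10 and 11.43 in Lxn-/- (0.25, SE 0.12, adjusted p 0.374), again with array 2 inside the WT range.

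Psma4, a core subunit like the others, was the alpha gene without overlap, with a difference of 0.17 (SE 0.09). The differences of Psma1, Psma3 and Psma5 were 0.16, 0.20 and 0.19, each between groups that overlapped. Psma8, the alpha subunit of the testis proteasome, was dim on these arrays at 6.80 ± 0.09 in WT and 6.83 ± 0.24 in Lxn-/- (SD, n = 3 each), below the median feature level of 7.77. Its difference of 0.04 (SE 0.13) turned to -0.01 without WT array 1 and to -0.09 without array 3 labelled Lxn-/-.

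**Figure D2:**
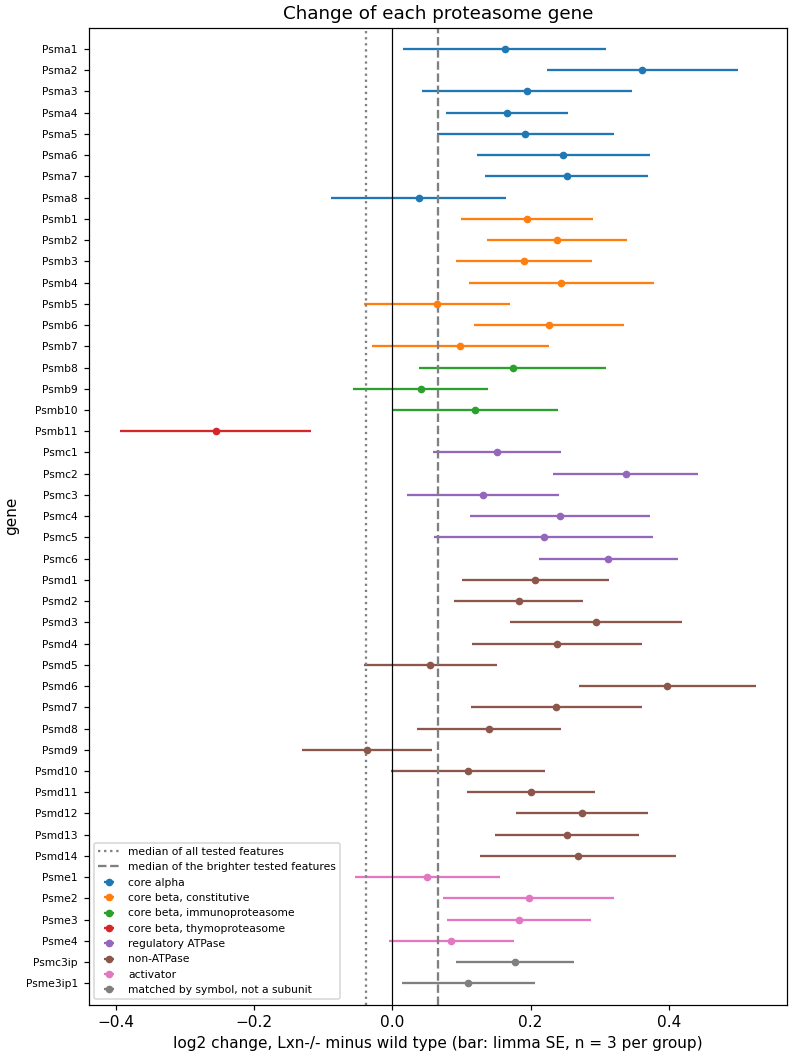
Log2 difference, Lxn-/- minus WT, of each of the 45 genes (points, coloured by role) with its limma SE (bars, n = 3 per group). The dotted line is the median of all tested features (-0.04), the dashed line that of the brighter features (0.07), and Psmb11 and Psmd9 are the 2 genes left of 0.

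The constitutive beta subunits also had higher means, all 7 of them, with a median of 0.19 (0.06 to 0.24) and 2 genes wholly above WT, where 8.54% of all and 15.8% of the brighter features lay so. Psmb2, a structural subunit of the beta ring, had the smallest p of this group. In WT it was 11.71, 11.76 and 11.78, and in Lxn-/- 12.13, 11.82 and 12.02. All arrays labelled Lxn-/- lay above all WT arrays, array 2 by the smallest margin, and the difference was 0.24 (SE 0.10, adjusted p 0.344). Psmb1, likewise without a proteolytic site, was 9.59, 9.65 and 9.83 in WT and 9.81, 9.91 and 9.94 in Lxn-/-, where array 1 lay inside the WT range and arrays 2 and 3 above it (0.19, SE 0.10, adjusted p 0.367). The other structural beta genes, Psmb3 and Psmb4, were at 0.19 (SE 0.10, no overlap) and 0.24 (SE 0.13). Without arrays 1 and 3 labelled Lxn-/- together the median of the constitutive beta group was 0.06, and the difference of Psmb4 was -0.01.

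The proteolytic sites are carried by Psmb6 (caspase-like), Psmb7 (trypsin-like) and Psmb5 (chymotrypsin-like). Their immunoproteasome counterparts are Psmb9, Psmb10 and Psmb8, in the same order.

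At the caspase-like site, Psmb6 was 10.65, 10.66 and 10.85 in WT and 11.08, 10.78 and 10.98 in Lxn-/- (0.23, SE 0.11, adjusted p 0.362). Psmb9 was 10.47, 10.43 and 10.65 in WT and 10.45, 10.63 and 10.58 in Lxn-/- (0.04, SE 0.10, adjusted p 0.837), inside the WT range on all 3 arrays, and renewed quantile normalization turned its difference to -0.05. The 2 genes lay farthest apart on array 1 labelled Lxn-/-. There the log2 difference Psmb9 minus Psmb6 was 0.42 below its WT mean (-0.42), against 0.06 on array 2 and -0.20 on array 3, while the WT arrays lay at 0.03, -0.02 and 0.00.

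At the trypsin-like site, Psmb7 was 10.11, 10.07 and 10.36 in WT and 10.52, 10.14 and 10.18 in Lxn-/- (0.10, SE 0.13, adjusted p 0.692). Its difference turned to -0.01 with array weights and -0.02 without array 1 labelled Lxn-/-. Psmb10 was 10.66, 10.52 and 10.71 in WT and 10.97, 10.73 and 10.54 in Lxn-/- (0.12, SE 0.12, adjusted p 0.604). Its difference was 0.0099 without array 1 labelled Lxn-/- and 0.22 without array 3. Both genes were highest on array 1 labelled Lxn-/-, and the difference Psmb10 minus Psmb7 averaged 0.02 above its WT mean in Lxn-/-, less than its SD of 0.10 among the WT arrays.

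At the chymotrypsin-like site, the target of proteasome inhibitor drugs, Psmb5 was 12.53, 12.61 and 12.63 in WT and 12.85, 12.60 and 12.51 in Lxn-/- (0.06, SE 0.11, adjusted p 0.758). It was above WT on array 1 and below all WT arrays on array 3, and its difference turned to -0.03 without array 1. Psmb8 was 10.70, 10.40 and 10.84 in WT and 10.92, 10.92 and 10.62 in Lxn-/- (0.17, SE 0.13, adjusted p 0.510). Arrays 1 and 2 lay above WT and array 3 inside its range. Psmb8 minus Psmb5 averaged 0.11 above its WT mean in Lxn-/-, with an SD of 0.23 among the WT arrays.

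**Figure D3:**
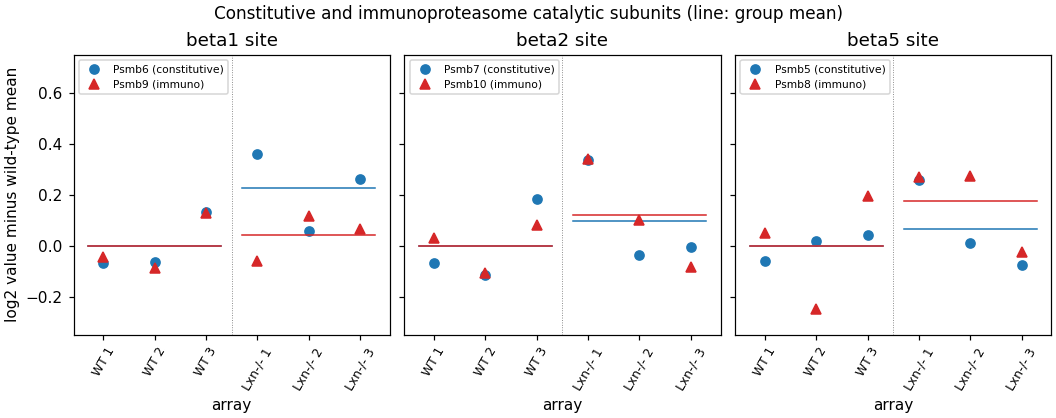
Log2 value minus the WT mean for the constitutive (blue circles) and immunoproteasome (red triangles) subunit of each catalytic site, on each of the 6 arrays; horizontal lines are group means. On array 1 labelled Lxn-/- Psmb9 lies below Psmb6, by 0.42 relative to WT, while Psmb10 and Psmb7 nearly coincide there.

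Of the 3 immunoproteasome genes 0 were free of overlap, where 15.8% of the brighter features lay wholly above WT and 3.60% wholly below. Their median was 0.12, against 0.19 for the constitutive beta genes, and the difference between these 2 groups was not tested. The order turned without array 3 labelled Lxn-/- (0.22 against 0.17) and without arrays 1 and 3 together (0.12 against 0.06). The immunoproteasome median was 0.05 without WT array 2, 0.09 without array 1 labelled Lxn-/-, 0.22 without array 3 and 0.025 after renewed quantile normalization. Psmb11, the beta subunit of the thymus proteasome, was dim and lower in mean. It was 7.42, 7.22 and 7.41 in WT and 7.34, 7.13 and 6.81 in Lxn-/-. Array 1 lay inside the WT range and arrays 2 and 3 below it (-0.26, SE 0.14, adjusted p 0.390).

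The 6 regulatory ATPases, which form the unfolding ring of the cap, all had higher means, with a median of 0.23 (0.13 to 0.34), and 2 of them lay wholly above WT, against 8.54% of all and 15.8% of the brighter features. Psmc2 was 8.93, 8.71 and 8.92 in WT and 9.28, 9.04 and 9.26 in Lxn-/- (0.34, SE 0.10, adjusted p 0.340). Psmc6 was 10.37, 10.16 and 10.39 in WT and 10.70, 10.51 and 10.66 in Lxn-/- (0.31, SE 0.10, adjusted p 0.340). For both, all 3 arrays labelled Lxn-/- lay above all WT arrays, and array 2 was the lowest of the 3. Psmc4 was 10.74, 10.75 and 10.86 in WT and 11.30, 10.79 and 10.99 in Lxn-/- (0.24, SE 0.13, adjusted p 0.387), with array 2 inside the WT range. The ATPases Psmc1, Psmc3 and Psmc5 were at 0.15, 0.13 and 0.22, with overlap.

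The size in this group depended on single arrays. Relative to WT its median was 0.40 on array 1 labelled Lxn-/-, 0.02 on array 2 and 0.18 on array 3. The median difference was 0.10 without array 1, 0.35 without array 2 and 0.12 with array weights. With array 2 as the lone array labelled Lxn-/- it was 0.02, and Psmc3 and Psmc5 turned to -0.01 each.

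**Figure D4:**
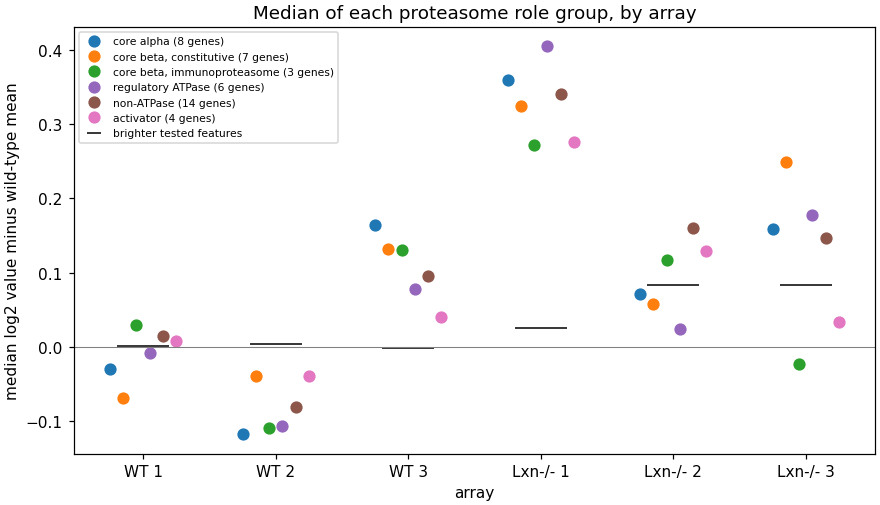
Median log2 value minus the WT mean over the genes of each role group (points) on each of the 6 arrays, with the same median over the brighter tested features (black dashes). On array 1 labelled Lxn-/- the 6 groups lie between 0.27 and 0.40 while the brighter features are at 0.03; on array 2 the ATPases are at 0.02 and the brighter features at 0.08.

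The 14 non-ATPase genes hold the scaffold, the ubiquitin receptors and the deubiquitinase of the cap, besides some assembly chaperones. Of these, 13 had higher means, the median was 0.22 (-0.04 to 0.40), and 7 did not overlap, all of them wholly above WT. That is 50.0% of the group, where 15.8% of the brighter features lay wholly above WT. Psmd6, a scaffold subunit of the lid, had the largest difference of all members. It was 9.72, 9.46 and 9.73 in WT and 10.09, 9.80 and 10.21 in Lxn-/- (0.40, SE 0.13, adjusted p 0.340). Array 2 was the lowest of the 3 and still above WT.

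Psmd12, also of the lid, was 10.01, 9.90 and 10.00 in WT and 10.36, 10.11 and 10.26 in Lxn-/- (0.27, SE 0.10, adjusted p 0.340). Psmd13 of the lid was 10.38, 10.21 and 10.46 in WT and 10.74, 10.51 and 10.57 in Lxn-/- (0.25, SE 0.10, adjusted p 0.341). Neither gene overlapped between groups. The lid subunits Psmd3, Psmd7 and Psmd11 had differences of 0.29, 0.24 and 0.20, also without overlap, and Psmd8 was at 0.14 with overlap.

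Psmd2 and Psmd1, the large base subunits that receive ubiquitin-like domains, were at 0.18 and 0.21. Psmd2 had no overlap and an SD of only 0.0034 over the WT arrays, against 0.13 in Lxn-/-. Psmd4, a ubiquitin receptor, and Psmd14, the deubiquitinase of the lid, were at 0.24 (SE 0.12) and 0.27 (SE 0.14). Their WT arrays spread widely, with SDs of 0.24 and 0.26, and both overlapped. The chaperones Psmd5, Psmd9 and Psmd10, which guide assembly of the base and leave the finished particle, had the smallest differences of the group, at 0.05, -0.04 and 0.11. Psmd5 turned to -0.03 with renewed quantile normalization, and Psmd9 to 0.02 when each array was centred on its median.

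Of the activators, which cap the core in place of the regulatory particle, all 4 had higher means and 0 were free of overlap. Of the brighter features 69.3% had a higher mean, 15.8% lay wholly above WT and 3.60% wholly below. Psme1 and Psme2 form the interferon-inducible activator. Psme1 was 11.30, 11.32 and 11.50 in WT and 11.58, 11.33 and 11.35 in Lxn-/- (0.05, SE 0.10, adjusted p 0.811). Its value was above WT on array 1 alone, and its difference turned negative in several settings: -0.02 with renewed quantile normalization, -0.02 with array weights, -0.03 without array 1 and -0.04 without arrays 1 and 3. Psme2 was 11.45, 11.51 and 11.63 in WT and 11.97, 11.69 and 11.53 in Lxn-/- (0.20, SE 0.12, adjusted p 0.435), highest on array 1 and inside the WT range on array 3. A further feature shared by Psme2 and Psme2b has 2 symbols and was left out.

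Psme3, the nuclear activator, was 11.90, 11.85 and 11.69 in WT and 12.15, 11.95 and 11.89 in Lxn-/- (0.18, SE 0.10, adjusted p 0.405), where array 3 lay just inside the WT range. Psme4, the large single-chain activator, was 10.27, 10.05 and 10.13 in WT and 10.22, 10.27 and 10.22 in Lxn-/- (0.09, SE 0.09, adjusted p 0.621). Its arrays labelled Lxn-/- were close together, with an SD of 0.03, and array 2 was level with the highest WT array. The median of the activators was 0.13, or 0.05 after renewed quantile normalization.

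The 2 genes that match by symbol without being subunits were similar in size of difference. Psmc3ip, a partner of the recombinases of meiosis, was 8.12, 8.06 and 8.16 in WT and 8.37, 8.25 and 8.25 in Lxn-/- (0.18, SE 0.09, adjusted p 0.364), without overlap. Psme3ip1, which binds Psme3, was 9.71, 9.65 and 9.77 in WT and 9.67, 9.86 and 9.92 in Lxn-/- (0.11, SE 0.10, adjusted p 0.556), with array 1 inside the WT range.

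For 5 members the platform has more than 1 feature, and all features of a gene differed in the same direction. The 3 features of Psma3 gave 0.20, 0.18 and 0.21, those of Psmb3 0.19 and 0.14, and those of Psmd2 0.18 and 0.17. Agreement in size was poorer for Psma5, at 0.19 for the brighter feature and 0.32 for the other, and for Psmc1, at 0.15 and 0.35. Where a feature matches several near-identical copies of a gene, their signals cannot be told apart.

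Other genes of the pathway were read from lists, of which no gene had an adjusted p under 0.05. Among assembly chaperones, which include Psmd5, Psmd9 and Psmd10, 6 of 8 measured genes had higher means (median 0.08), as did 69.3% of the brighter features. Pomp, which matures the core, had the largest statistic at 0.22 (SE 0.09), and Psmg1 and Psmg2, which pair up to assemble the alpha ring, were at 0.19 (SE 0.09) and 0.17 (SE 0.10). All 9 measured associated proteins and further subunits had higher means (median 0.14), as did 69.3% of the brighter features, and 4 lay wholly above WT, as did 15.8% of the brighter features. The largest statistics were those of Usp14, a deubiquitinase bound to the cap (0.30, SE 0.11), Txnl1, a thioredoxin bound to it (0.27, SE 0.12), and Uchl5, the other cap deubiquitinase (0.28, SE 0.13).

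The list of the Nrf1 axis and related genes held 4 measured genes, all with higher means and 0 without overlap (median 0.11). Among the brighter features 69.3% had a higher mean, 15.8% lay wholly above WT and 3.60% wholly below. Nfe2l1 was 10.44, 10.56 and 10.36 in WT and 10.67, 10.54 and 10.55 in Lxn-/- (0.13, SE 0.09, adjusted p 0.468). Nfe2l2, the related factor of the oxidative stress response, was at 0.15 (SE 0.09) and Midn, which carries proteins to the proteasome without ubiquitin, at 0.09 (SE 0.10). Ngly1, the remaining gene of the list, was at 0.02 (SE 0.12, adjusted p 0.943).

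Of 11 measured genes of ubiquitin shuttling and p97 extraction, 8 had higher means (median 0.13), as did 69.3% of the brighter features. Faf1, a p97 cofactor, was at 0.27 (SE 0.11), and the shuttle genes Ubqln1 and Ubqln4 were at 0.18 (SE 0.09) and 0.21 (SE 0.13). Of the ubiquitin precursor and E1 genes 2 of 7 were measured. Uba6, a ubiquitin-activating enzyme, was at 0.27 (SE 0.09, no overlap) and Uba7, which activates the ubiquitin-like Isg15, at -0.11 (SE 0.11).

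Class I antigen processing, which uses the peptides of the immunoproteasome, was mixed, with 6 of 10 measured genes higher and a median of 0.05. The share of the brighter features with a higher mean was 69.3%. Irf8, a transcription factor of myeloid and dendritic cells that also drives interferon genes, had the largest statistic at 0.42 (SE 0.11, adjusted p 0.340). The folding enzyme gene Pdia3 was at 0.42 (SE 0.17) and the chaperone gene Calr at 0.17 (SE 0.10). The peptide transporter genes Tap1 and Tap2 were among the 4 genes of this list with lower means. Tap1, the chromosome 17 neighbour of Psmb9 and Psmb8, was 11.32, 11.25 and 11.43 in WT and 11.01, 11.51 and 11.23 in Lxn-/-. Its difference was -0.08 (SE 0.13, limma adjusted p 0.750), and the groups overlapped. Tap2 was at -0.19 (SE 0.16), also with overlap. Tap1 and Tap2 were named after their values were seen.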

How the data were processed

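The deposited table gives log2 values of 35557 features on 6 Affymetrix MoGene arrays, which the authors normalized by RMA per the series text. Per the submitters' processing notes, Partek 6.0 was used as well. That they are log2 was taken from their range (2.93 to 14.78 over the features with a symbol). Settings of RMA: not given in the sources used here. As RMA scales the arrays against each other, these values do not measure the total RNA of a cell.

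Symbols came from the platform's gene table (1 symbol for 21789 features, several for 1621, none for 12147), updated by Entrez identifier in 21698. Group and replicate number were read from each title. Features with a symbol were fitted with limma 3.58.1 in R 4.3.3 (lmFit, eBayes, two-sided); p-values of all 23410 were adjusted together by Benjamini-Hochberg, with a threshold of 0.05, after a test on simulated data. The 3 pools a group are labelled biological replicates.

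The members and lists were chosen with earlier results of these data known. Values on every array are printed for the catalytic pairs, Psme1 to Psme4 and the 3 members with the largest moderated statistic in each role group. Of each further list, up to 3 genes with the largest statistic are named. Tap1, Tap2, Ngly1, Itgam, Ly6g, Cd68, Pecam1 and the array values of Nfe2l1 were added after the values were seen. Same-numbered arrays of the groups correlated at 0.08, -0.01 and -0.01 in their deviations from the group means. With 3 arrays a group, this cannot decide whether the numbers pair the pools. The main fit used no pairing. Alternatives were array weights, trended and robust eBayes, all rows, the brighter features, renewed quantile normalization, median centring, a replicate block, arrays left out and averaging the features of a gene. Counts of members by direction and overlap under these were added after the data were seen. Plots used Python 3.11.15 and matplotlib 3.10.9.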

Additional observations from a re-analysis of the deposited data

How the results depend on the processing

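No proteasome gene was called at an adjusted p of 0.05 under any alternative run (smallest adjusted p by setting 0.135 to 0.644), and at an unadjusted p under 0.05 there were 8 (3346 over all features). The limma adjusted p of 0.135, with array weights, was that of Psmb11, which was lower in Lxn-/- (-0.36). Without array 1 labelled Lxn-/- the smallest, 0.144, was also that of Psmb11 (-0.38). The number of all features called was 0, with 1 under the replicate block, 3 without arrays 1 and 3 labelled Lxn-/- together, and 0 to 145 with 1 array left out. The replicate block called no member. As each number occurs in both groups, the block cannot change the differences themselves. The median over all members stayed between 0.11 and 0.25. Group medians that moved by more than the SD over WT arrays were those of the constitutive beta genes (0.057 without arrays 1 and 3 labelled Lxn-/-), of the ATPases (0.12 with array weights, 0.025 without those 2 arrays, 0.10 to 0.35 with 1 array left out) and of the activators (0.046 with renewed quantile normalization, 0.19 with median centring, 0.091 with array weights, 0.086 to 0.17 with 1 array left out). Direction turned for Psmb9 (-0.045), Psmd5 (-0.032) and Psme1 (-0.023) with renewed quantile normalization, for Psmd9 (0.020) with median centring, for Psmb7 (-0.013) and Psme1 (-0.020) with array weights, and without arrays 1 and 3 for Psmb4 (-0.0087), Psmb7 (-0.038), Psmc3 (-0.0057), Psmc5 (-0.0060) and Psme1 (-0.038). With 1 array left out, the differences ranged from -0.090 to 0.15 for Psma8, -0.032 to 0.13 for Psmb5, -0.021 to 0.19 for Psmb7, -0.0027 to 0.11 for Psmb9, -0.11 to 0.0076 for Psmd9 and -0.030 to 0.11 for Psme1. The cause of these shifts was not tested. With the lone array 2 the fit takes its spread from the WT arrays. Signal over background is not given in the table, so for the dim Psma8 and Psmb11 detection is unknown.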
